A study of Homo sapiens with 24 samples.

Results

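STC1, STC2, NPPB, NPR3 and KISS1R code for secreted hormones and hormone receptors, and were selected for a large or late difference between cells kept in low oxygen and cells kept at normal oxygen. They are 5 of 22446 gene symbols measured in A2780, a long-established cell line from a human epithelial ovarian cancer, and 5 of the 11933 symbols abundant enough to be tested (1 RPKM or more in 2 or more of the 12 libraries). RPKM is a read count scaled by transcript length and library size, so it is a level per length. The hypoxia groups (6 hr, 48 hr and 6 days) were held at 1% oxygen in a controlled chamber, and the normoxia groups (6 hr, 48 hr and 6 days) were untreated controls; all were A2780 in RPMI medium with serum, and each of the 6 groups had 2 libraries of total RNA depleted of ribosomal RNA. Nothing in the labels tells if paired libraries are separate cultures, so every p-value measures the spread between libraries, which may be technical. A2780 is 1 cell line, and other ovarian cancers were not analysed here. In bulk RNA a level cannot separate more cells that express a gene from more RNA per expressing cell.

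Stanniocalcins are secreted glycoproteins first known from the calcium balance of fish; in mammals STC1 and STC2 act locally, and both bind and block pappalysins, the proteases that release insulin-like growth factors from their binding proteins. NPPB codes for B-type natriuretic peptide, a hormone of stretched heart muscle that acts through the guanylyl cyclase receptor NPR1, while NPR3 is the natriuretic peptide receptor without a cyclase domain, which binds these peptides and removes them. KISS1R is the G protein-coupled receptor of kisspeptin, known for its part in puberty and for the restraint of metastasis by its ligand. When oxygen falls, the transcription factor HIF is stabilised and binds a short core sequence in the control regions of its targets, and cells short of amino acids or with misfolded proteins use another factor, ATF4.

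The levels of the 5 genes in every library separate them into different time courses. At 6 days in hypoxia the order was STC2 (36.2 ± 1.54 RPKM, SD, n = 2, as for the values that follow), NPPB (12.4 ± 1.82), STC1 (5.75 ± 0.0375), NPR3 (3.93 ± 0.199) and KISS1R (3.15 ± 0.292), and no neighbours in this order had overlapping libraries. In the same group, STC2 was above 91.2% of the tested genes, NPPB above 74.2%, STC1 above 48.8%, NPR3 above 35.8% and KISS1R above 28.8%. At 48 hr in hypoxia the order was STC2, KISS1R, NPPB, NPR3 and STC1, and the libraries of NPR3 and STC1 overlapped. At 6 hr in hypoxia it was STC2, KISS1R, NPR3, NPPB and STC1, with no overlap between neighbours, although NPPB and STC1 then rested on 5 and 10 reads.

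**Figure D1:**
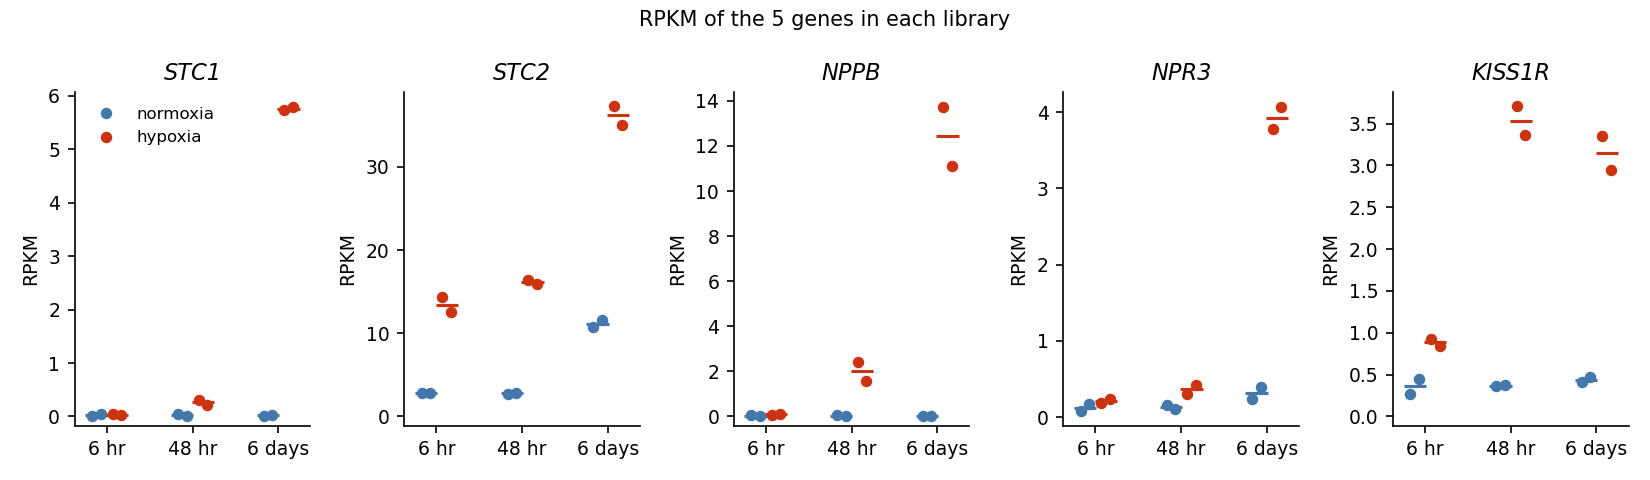
RPKM of each of the 5 genes (1 panel each, with its own linear axis) against time, in normoxia (blue) and hypoxia (red). Points are libraries, 2 per group, and short lines are their means; STC1, NPPB and NPR3 are highest at the last time in hypoxia, while STC2 is already above normoxia at 6 hr and KISS1R is as high at 48 hr as at 6 days.

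The promoters are shown because the genes were selected on their level in hypoxia and because these windows can be searched for the core that HIF binds. RefSeq windows on GRCh38.p14, from 250 bases before to 50 bases after a start site, had entries for STC2 and NPR3 but not for NPPB or KISS1R. STC1 was not looked up, so nothing is said of its window. NPPB, STC1 and KISS1R are named only. The windows are STC2 at chr5:173328365-173328664 on the minus strand, the upstream NPR3 start at chr5:32690622-32690921 and the downstream NPR3 start at chr5:32710399-32710698, both on the plus strand. They are written 5′ to 3′ along the gene, and capitals mark the letters GCGTG read on either strand.
STC2 promoter: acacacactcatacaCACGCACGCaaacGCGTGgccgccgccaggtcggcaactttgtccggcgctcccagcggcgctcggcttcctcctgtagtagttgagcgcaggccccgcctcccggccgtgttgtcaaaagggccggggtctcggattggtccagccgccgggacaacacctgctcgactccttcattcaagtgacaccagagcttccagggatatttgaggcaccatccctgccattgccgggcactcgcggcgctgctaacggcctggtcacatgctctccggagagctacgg
NPR3 upstream start: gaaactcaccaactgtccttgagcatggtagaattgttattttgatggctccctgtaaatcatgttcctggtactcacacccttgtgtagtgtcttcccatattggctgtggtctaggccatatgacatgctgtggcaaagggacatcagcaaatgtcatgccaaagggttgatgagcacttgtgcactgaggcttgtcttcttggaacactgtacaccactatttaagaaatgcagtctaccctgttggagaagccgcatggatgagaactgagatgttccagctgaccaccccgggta
NPR3 downstream start: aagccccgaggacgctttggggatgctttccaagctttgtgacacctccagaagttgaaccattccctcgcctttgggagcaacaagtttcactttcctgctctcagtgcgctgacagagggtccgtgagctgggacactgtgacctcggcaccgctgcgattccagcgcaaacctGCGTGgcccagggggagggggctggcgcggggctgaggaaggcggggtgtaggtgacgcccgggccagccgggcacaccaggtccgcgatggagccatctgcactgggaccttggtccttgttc

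The hypoxia response core was searched in both its forms, ACGTG and GCGTG, together with the amino acid response element TGATGNAA that ATF4 binds (N is any base) and the E-box CACGTG, which contains ACGTG. Both strands were read. The STC2 window, with a GC content of 64%, held GCGTG 3 times, with first bases at -235, -231 and -222 from the start site, the first 2 on the minus strand and overlapping each other. The downstream NPR3 window held it once, at -74, and the upstream NPR3 window held none of the 4 motifs. ACGTG, TGATGNAA and CACGTG were in none of the 3 windows. Among 35116 RefSeq promoter windows of the same length, 36.5% held GCGTG, 21.4% held ACGTG, 48.4% held either core, 3.62% held TGATGNAA and 7.26% held CACGTG. Such a match is a description of the letters, not a binding site, and its absence says only that the letters are not in that window.

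STC1 was near 0 until the last time and then among the genes furthest above normoxia. Its libraries in normoxia gave 0.0149 and 0.0395 RPKM at 6 hr, 0.0380 and 0.0167 at 48 hr, and 0.0173 and 0.0256 at 6 days. In hypoxia they gave 0.0404 and 0.0290 at 6 hr, 0.310 and 0.219 at 48 hr, and 5.73 and 5.78 at 6 days. The hypoxia and normoxia libraries overlapped at 6 hr and were apart at 48 hr and at 6 days. The mean in hypoxia was 7.63 times higher at 48 hr than at 6 hr, and 21.7 times higher at 6 days than at 48 hr.

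The reads behind STC1 show how far each of its ratios can be trusted. For STC1, NPPB and KISS1R the low values lie on steps of whole reads, from which the reads can be counted. STC1 had 10 reads in hypoxia against 7 in normoxia at 6 hr, a depth-scaled ratio of 1.51 with an exact 95% interval of 0.518 to 4.66, which covers counting error only. At 48 hr it had 72 reads against 9, a ratio of 9.91 with an interval of 4.94 to 22.5. At 6 days it had 1297 reads against 5, a ratio of 267 with an interval of 114 to 824. A difference at 6 hr was not detectable at this depth. On the scale used for all genes, log2(RPKM + 0.5), the differences were 0.02, 0.53 and 3.58 (SE 0.12) at the 3 times, since the added 0.5 RPKM shrinks the change of a gene whose normoxia level is near 0. STC1 ranked 6535, 836 and 4 from the top of 11933 genes in that difference at 6 hr, 48 hr and 6 days.

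STC2, the other stanniocalcin, was not a late gene. Its hypoxia libraries gave 14.3 and 12.5 RPKM at 6 hr against 2.85 and 2.82 in normoxia. They gave 16.4 and 15.9 at 48 hr against 2.71 and 2.85, and 37.3 and 35.1 at 6 days against 10.7 and 11.6. At each time both hypoxia libraries were above both normoxia libraries. The differences were log2 2.06, 2.35 and 1.66 (SE 0.089), or 4.16, 5.08 and 3.15-fold on the log2(RPKM + 0.5) scale, and STC2 had ranks 11, 20 and 193 from the top of 11933 genes. Its level in hypoxia was highest at 6 days, yet its difference from normoxia was smallest there, as the normoxia level was also highest at 6 days. Untreated cells at 6 days held 0.831 times the STC2 of cells at 6 hr in hypoxia, and hypoxia at 6 days stood 12.8 times above normoxia at 6 hr.

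The 2 stanniocalcins thus differed in level and timing. At 6 hr in hypoxia STC1 stood at 0.602% of its own 6-day level and STC2 at 37.1%, and at 48 hr STC1 stood at 4.60% and STC2 at 44.7%. STC2 was measured well above the counting floor in every group, whereas STC1 was not detectably above a few reads in any normoxia group.

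NPPB had the largest fitted difference of all tested genes at 6 days, rank 1 of 11933. Its normoxia libraries gave 0.0553 and 0 RPKM at 6 hr, 0.0703 and 0 at 48 hr, and 0 and 0 at 6 days. Its hypoxia libraries gave 0.0747 and 0.121 at 6 hr, 2.42 and 1.58 at 48 hr, and 13.7 and 11.1 at 6 days. In RPKM the hypoxia libraries were above the normoxia libraries at each time. At 6 hr this rested on depth scaling, since hypoxia library 3 and normoxia library 1 each held 2 reads. Mean NPPB in hypoxia was 20.5 times higher at 48 hr than at 6 hr and 6.21 times higher at 6 days than at 48 hr.

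The hypoxia and normoxia libraries together held 5 NPPB reads against 2 at 6 hr, 98 against 2 at 48 hr, and 513 against 0 at 6 days. The depth-scaled ratio was 2.64 at 6 hr, with an exact 95% interval of 0.432 to 27.7, and 60.7 at 48 hr, with an interval of 16.4 to 508. At 6 days a floor of 3 reads per library, 0.143 RPKM, puts NPPB at least 86.9-fold higher in hypoxia. The fitted differences of log2 0.18, 2.21 and 4.68 (SE 0.17) depend on the added 0.5 RPKM and set no bound. Unlike STC1, NPPB was already at rank 27 of 11933 genes at 48 hr, after rank 2812 at 6 hr.

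NPR3, the clearance receptor that binds the peptide NPPB codes for, was also highest at 6 days in hypoxia, from a higher base. In normoxia its libraries gave 0.0764 and 0.168 RPKM at 6 hr, 0.153 and 0.104 at 48 hr, and 0.242 and 0.390 at 6 days. In hypoxia they gave 0.186 and 0.237 at 6 hr, 0.296 and 0.426 at 48 hr, and 3.78 and 4.07 at 6 days. Hypoxia was above normoxia in both libraries at each time. The ratio of mean RPKM was 1.73 at 6 hr, 2.81 at 48 hr and 12.4 at 6 days, and the log2(RPKM + 0.5) differences were 0.20, 0.45 and 2.44 (SE 0.14), ranks 2561, 1098 and 41. In hypoxia mean NPR3 was 1.71 times higher at 48 hr than at 6 hr and 10.9 times higher at 6 days than at 48 hr, so as a ratio its larger step came after 48 hr, and that of NPPB before. Its reads could not be counted from the steps, so no counting interval is given.

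KISS1R, the kisspeptin receptor, was about as high at 48 hr as at 6 days. Its normoxia libraries gave 0.273 and 0.448 RPKM at 6 hr, 0.363 and 0.372 at 48 hr, and 0.413 and 0.467 at 6 days. Its hypoxia libraries gave 0.931 and 0.847 at 6 hr, 3.71 and 3.36 at 48 hr, and 3.36 and 2.94 at 6 days. Both hypoxia libraries were above both normoxia libraries at each time, and the lower hypoxia library at 48 hr and the higher one at 6 days both lay at 3.36 RPKM. The 6-day mean was 0.891 times the 48 hr mean. KISS1R had 107 reads against 42 at 6 hr, 403 against 52 at 48 hr and 301 against 43 at 6 days. The depth-scaled ratios were 2.69 (exact 95% interval 1.86 to 3.94), 9.60 (7.18 to 13.1) and 7.21 (5.23 to 10.2). The log2(RPKM + 0.5) differences were 0.70, 2.22 and 1.96 (SE 0.12), ranks 240, 26 and 112 of 11933.

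Counted over the 5 genes, hypoxia and normoxia libraries did not overlap in 4 at 6 hr, 5 at 48 hr and 5 at 6 days, with hypoxia above. At 6 hr NPPB was among the 4 only through depth scaling, as hypoxia library 3 and normoxia library 1 each held 2 reads. Since the genes were selected on differences between hypoxia and normoxia, the counts describe them and no test is given. How many of all tested genes had libraries apart was not counted. The shares called by limma that follow are a stricter measure and give no background for these counts. Across all 11933 tested genes, limma's test with Benjamini-Hochberg adjustment and a threshold of 0.05 called 3.39% higher and 0.201% lower in hypoxia at 6 hr. It called 9.24% higher and 2.89% lower at 48 hr, and 23.9% higher and 18.3% lower at 6 days. STC1, NPPB, NPR3 and KISS1R passed the minimum of 1 RPKM only through hypoxia libraries, so they had to differ, while STC2 passed it in all 12.

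**Figure D2:**
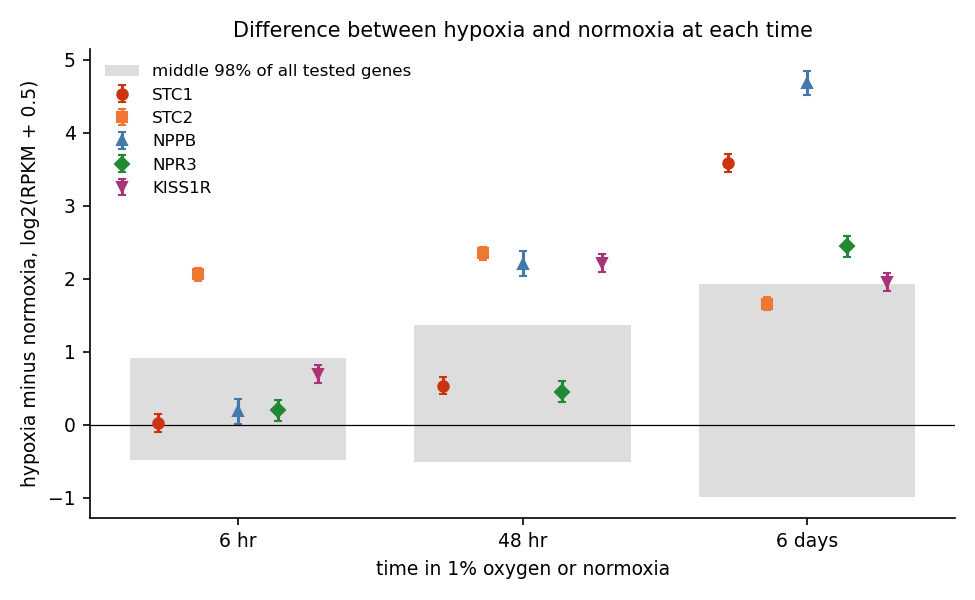
Difference between hypoxia and normoxia on the log2(RPKM + 0.5) scale for the 5 genes at each time; bars are standard errors of the fit over 12 libraries, and grey boxes hold the middle 98% of all tested genes. STC2 lies above the box at 6 hr and 48 hr and inside it at 6 days, while STC1, NPPB and NPR3 move from inside it at 6 hr to well above it at 6 days; NPPB at 6 days has no reads in normoxia, so its point depends on the added 0.5 RPKM.

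The lateness was set beside that of other genes as the share of the 6-day hypoxia level that was reached earlier. NPPB reached 0.787% of it at 6 hr and 16.1% at 48 hr, NPR3 5.39% and 9.20%, and KISS1R 28.2% and 112%. Among the 11493 tested genes with at least 1 RPKM at 6 days in hypoxia, the median was 94.5% at 6 hr and 99.2% at 48 hr. STC1 and NPR3 were under 10% at 48 hr, as were 34 genes in all (0.296%). NPPB was among 163 genes (1.42%) under 20%. Of 29 tested HIF targets, a list written from general knowledge (glycolytic enzymes, BNIP3, CA9, VEGFA and others), none was under 10% and 2 were under 20% at 48 hr, with medians of 36.9% at 6 hr and 57.0% at 48 hr. Of 24 ATF4 targets, 3 were under 10% and 5 under 20%. Of 10 other peptide hormone genes at that level, 2 were under 10% and 5 (50%) under 20% at 48 hr, with a median of 35.4%. Of 10 other hormone receptors, 0 were under 20%. A low share at 48 hr in hypoxia was thus found in other peptide hormone genes too. This share leaves out normoxia, where limma called 7 of their 12 tested genes higher and 2 lower at 6 days than at 6 hr. The list's median change there was log2 1.24, and its median difference between hypoxia and normoxia at 6 days was log2 0.11. Of the 24 ATF4 targets, 23 rose in normoxia over the same time. STC2, at 37.1% and 44.7%, lay near the median HIF target at 6 hr and below it at 48 hr. These shares are descriptions, since the late level in hypoxia is what the genes were selected on.

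**Figure D3:**
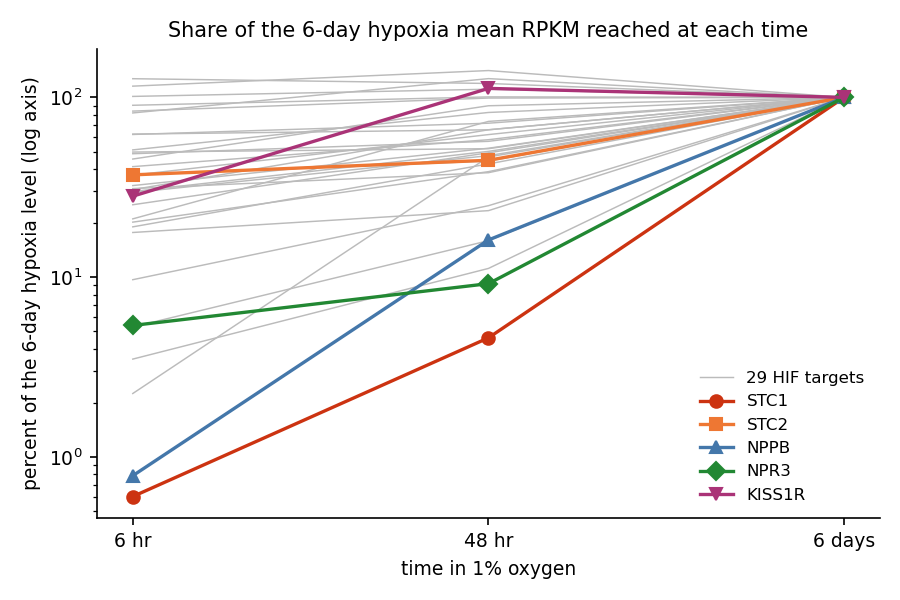
Percent of the 6-day mean RPKM in hypoxia that each gene had at 6 hr and 48 hr (log axis), for the 5 genes in colour and 29 HIF targets in grey. STC1 (0.602% and 4.60%) and NPPB (0.787% and 16.1%) start below all the grey lines at 6 hr, and KISS1R is at 112% by 48 hr.

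The genes were not selected on change with time in normoxia, so that change was tested. The normoxia values were still 1 side of the differences used for selection, so these p-values are not independent of it. STC1, NPPB, NPR3 and KISS1R were also low in normoxia by the way they passed the minimum, which limits what their tests can show. STC2 rose by 6 days: its normoxia level went from 2.84 ± 0.0244 RPKM at 6 hr and 2.78 ± 0.0967 at 48 hr to 11.1 ± 0.605 at 6 days (SD, n = 2 each). That was a difference of log2 1.80 from 6 hr (3.49-fold, limma adjusted p = 1.30e-07, 3.35e-08 to 6.10e-06 over the alternatives) and of log2 1.83 from 48 hr (3.55-fold, limma adjusted p = 1.11e-07). Both libraries at 6 days were above all 4 earlier ones. Between 6 hr and 48 hr STC2 differed by log2 -0.03 (limma adjusted p = 0.916).

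NPR3 in normoxia was also higher at 6 days, by log2 0.39 from 6 hr (limma adjusted p = 0.0358) and by log2 0.37 from 48 hr (limma adjusted p = 0.0414). This call was fragile: quantile normalization ended it against both times (adjusted p = 0.862 and 0.952), as did a pseudocount of 1 (0.0525 and 0.0584) and, against 6 hr, trimmed-mean centring (0.0652). It was lost against 6 hr without library 1 (0.183) or library 10 (0.228), and against 48 hr without library 5 (0.0745), 6 (0.172), 10 (0.255), 3 (0.0508), 4 (0.0513), 11 (0.0542) or 12 (0.0538). STC1, NPPB and KISS1R did not pass: limma adjusted p at 6 days against 6 hr was 0.924, 0.722 and 0.374, and against 48 hr it was 0.919, 0.650 and 0.445. STC2 and NPR3 were thus the 2 of the 5 called higher at 6 days, and none was called lower. Of all tested genes, 30.9% were called higher and 25.9% lower than at 6 hr, and 27% higher and 32.4% lower than at 48 hr. With STC1, NPPB, NPR3 and KISS1R so low in early normoxia, a lower call was hardly open to them. The shares over all genes are therefore no background for the 5. Between 48 hr and 6 hr none of the 5 was called by limma, at an unadjusted p under 0.05 also none, and 0.0922% of all genes were called; no other tool was run.

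ATF4 targets moved with STC2 over culture time. Of 24 tested ATF4 targets, 23 rose and 1 fell from 6 hr to 6 days in normoxia, where 30.9% of all tested genes rose and 25.9% fell, with a median of log2 1.95 against 0.04 over all tested genes. DDIT3, a stress transcription factor, went from 3.78 to 48.6 RPKM (log2 3.52, limma adjusted p = 8.07e-09) and CHAC1, which degrades glutathione, from 1.16 to 23.9 RPKM (log2 3.87, limma adjusted p = 1.58e-08). Of 29 HIF targets 18 rose and 4 fell, with a median of log2 0.52. Whether the STC2 change and these changes have a common source was not tested.

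**Figure D4:**
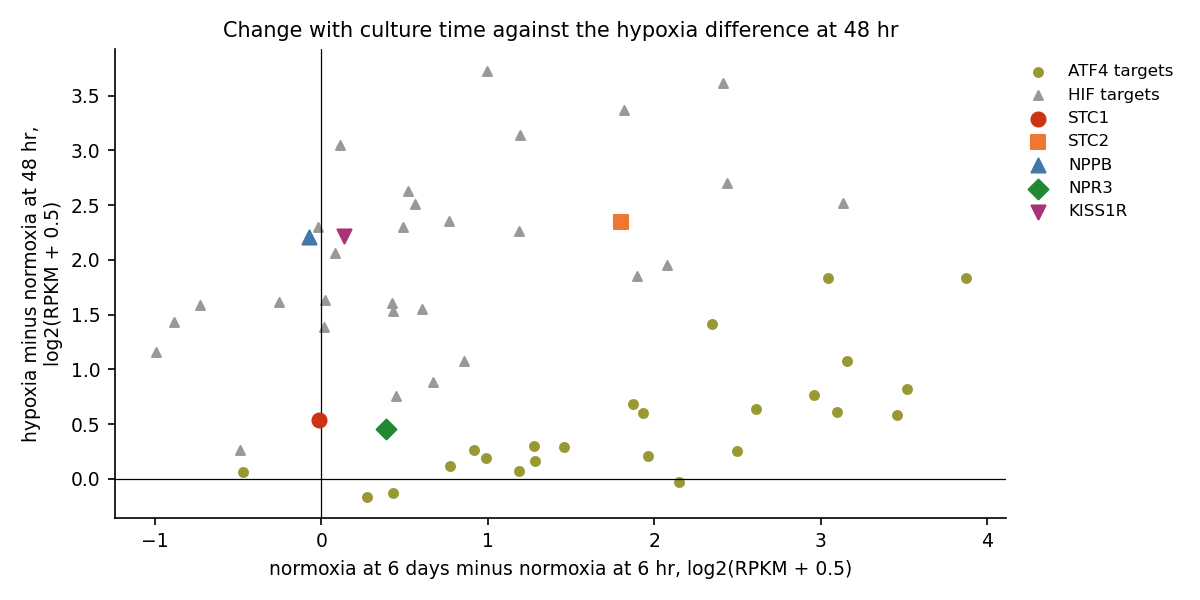
Change in normoxia from 6 hr to 6 days (x axis) against the difference between hypoxia and normoxia at 48 hr (y axis), both on the log2(RPKM + 0.5) scale; the axes share no library. Points are the 5 genes, 24 ATF4 targets and 29 HIF targets; STC2 lies at 1.80 and 2.35, and the other 4 genes lie between -0.08 and 0.39 on the x axis.

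Partners of the 2 stanniocalcins were measured as a list of 14 pappalysin and growth factor genes, of which 7 were tested. The proteases themselves were scarce: PAPPA was at or under 0.0614 RPKM in every library, and PAPPA2 gave 0.173 and 0.151 RPKM at 6 days in hypoxia against 0.0230 and 0.0382 in normoxia, below the minimum for testing. None of the 7 was called by limma at 6 hr (2 at an unadjusted p under 0.05), 3 were higher at 48 hr and 3 at 6 days (9.24% and 23.9% of all tested genes), and none was lower; the medians were log2 0.08, 0.46 and 0.21, against 0.04, 0.01 and 0.04 over all tested genes. IGFBP6, a binding protein of IGF2, rose by log2 0.94 at 48 hr (limma adjusted p = 0.00208) and 0.78 at 6 days (0.00205). IGFBP2 rose by log2 0.75 at 6 days (0.00183) and IGFBP3, the most abundant of these at 76.1 RPKM, by log2 0.47 (0.0192). The IGFBP3 call was lost without library 9 (0.101), 10 (0.0565) or 11 (0.133). IGF1R, the growth factor receptor, was called at 48 hr (log2 0.46, 0.0436), a call lost under quantile normalization (0.112), trimmed-mean centring (0.0749) and no filter (0.107), and without any one of libraries 3 to 10 (0.0540 to 0.246). The third gene at 48 hr was IGFBP2 (log2 0.60, 0.0195, under 1 RPKM), named after its values were seen; the call was lost under quantile normalization (0.161) and without library 6 (0.172), 7 (0.151) or 8 (0.0531), so 1 of the 3 calls at 48 hr remained without any one of these libraries, that of IGFBP6.

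The other natriuretic peptides and receptors were scarce or not called different. NPPA, the atrial peptide gene, was listed at 0 in 11 of 12 libraries and at 0.0287 RPKM in the other, and NPPC, the C-type peptide gene, lay between 0 and 1.34 RPKM with hypoxia and normoxia libraries overlapping at 6 days. NPR1, the cyclase receptor for the peptide NPPB codes for, gave 0.511 and 0.522 RPKM at 6 days in hypoxia against 0.352 and 0.387 in normoxia, and was never at 1 RPKM. NPR2, the cyclase receptor for the C-type peptide, averaged 2.80 against 2.51 RPKM at 6 days (limma adjusted p = 0.466). Of the phosphodiesterases that degrade cyclic nucleotides, PDE9A was at 0 in all 4 libraries at 6 hr and gave 0.263 and 0.333 RPKM at 6 days in hypoxia against 0.0429 and 0.0422 in normoxia. PDE2A gave 0.256 and 0.171 against 0.0724 and 0.0714, so both were apart at 6 days, below the minimum for testing. Of the 18 genes on the list 8 were tested; none was called by limma at 6 hr or 48 hr (1 at each time at an unadjusted p under 0.05), and at 6 days 1 was higher and 1 lower, against 23.9% and 18.3% of all tested genes, with medians of log2 0.11, 0.07 and 0.13. PCSK6, a proprotein convertase, fell by 0.67 on the log2 scale at 6 days (limma adjusted p = 0.000134), from 4.45 to 2.62 RPKM. GNAI1, an inhibitory G protein subunit of the kind NPR3 can signal through, was higher by log2 0.37 (0.0237), a call lost without any one of libraries 9 to 12 (0.0746 to 0.106).

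KISS1, which codes for the ligand of KISS1R, was at or under 0.0536 RPKM in every library but those at 6 days in hypoxia, which gave 0.253 and 0.390 against 0 and 0.0463 in normoxia; it was below the minimum for testing. The 17 genes of kisspeptin signalling had 8 tested members. None was called by limma at 6 hr or 48 hr (1 at each time at an unadjusted p under 0.05), and at 6 days 3 were higher (1 without library 9) and 2 lower (0 without library 10, 1 without 11 or 12), against 23.9% and 18.3% of all tested genes, with medians of log2 0.14, -0.01 and 0.16. GNRH1, the gonadotropin-releasing hormone gene that kisspeptin controls in the brain, was at 1.49 against 0.581 RPKM (log2 0.88, limma adjusted p = 0.00213). ADRBK1, a receptor kinase, was higher by log2 0.46 (0.00747; 0.0560 without library 9 and 0.0684 without library 11) and ARRB1, an arrestin, by log2 0.38 (0.0263; 0.209 under quantile normalization, 0.145 without library 9 and 0.198 without library 12). GNAQ, the G protein subunit that KISS1R couples to, was lower by a log2 difference of -0.44 (0.00819; 0.0906 without library 10). PLCB3, a phospholipase downstream of it, was lower by a log2 difference of -0.36 (0.0246; 0.170, 0.124 and 0.0595 without libraries 10, 11 and 12) and was named after its values were seen.

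Beyond these partners, 55 other peptide hormone genes gave 12 tested, of which 1, 5 and 5 were higher and 0, 0 and 2 lower at 6 hr, 48 hr and 6 days, with medians of log2 0.07, 0.44 and 0.11. Over all tested genes the shares were 3.39, 9.24 and 23.9% higher and 0.201, 2.89 and 18.3% lower, so 2 of 12 lower at 6 days is about the background; it was 1 without library 9 or 12. ADM, the vasodilator adrenomedullin and also on the HIF list, stood at log2 2.02, 2.06 and 2.92 (limma adjusted p = 2.28e-06, 7.27e-07 and 4.37e-08). VGF, a neuropeptide precursor, rose by log2 1.12 (6.92e-05) and CALCB, a calcitonin gene-related peptide, by log2 0.79 (0.00353) at 48 hr. At 6 days INHA, the inhibin alpha subunit, rose by log2 1.01 (0.000895), SCG2, a secretogranin, fell by 0.74 on the log2 scale (0.00142), and GDF15, a stress hormone, was higher by log2 0.67 (0.00693), a call lost without library 9 (0.0633) or 11 (0.0651) and with 0.1 added to RPKM (0.137). NPPB and STC1 at 6 days, at log2 4.68 and 3.58, were above every tested gene of this list, the ADM value of 2.92 being the highest. As NPPB and STC1 were selected on this difference, their place above the list follows from the choice and is no test.

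The 45 other hormone receptors gave 10 tested, with 1, 2 and 5 higher and 0, 1 and 2 lower at the 3 times, and medians of log2 0.05, 0.10 and 0.24. The same shares of all tested genes apply, and 2 of 10 lower at 6 days is near the 18.3%; it was 1 without library 9, 11 or 12. EPOR, the erythropoietin receptor, was higher by log2 0.59, 0.83 and 0.61 (limma adjusted p = 0.00988, 0.000397 and 0.000944; 0.106 at 6 hr without library 3). The activin receptors ACVR1B (log2 0.66, 0.000690) and ACVR2A (0.55, 0.000814) rose at 6 days; ACVR1B at 48 hr (log2 0.45, 0.0193) was lost without any one of libraries 5 to 8 (0.0741 to 0.141), which left 1 receptor higher. LEPR, the leptin receptor, had log2 differences of -0.63 at 48 hr (0.0137) and -0.57 at 6 days (0.00775), lost at 48 hr without library 5 (0.0585), 6 (0.0924) or 7 (0.142) and at 6 days without library 9 (0.0759) or 11 (0.0694). NPR3 and KISS1R at 6 days, at log2 2.44 and 1.96, were above the highest tested receptor of this list. Both were selected on their difference in hypoxia, so this order is a description only.

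HIF targets and ATF4 targets gave the wider setting for the hypoxia differences. Of 29 tested HIF targets, 25, 28 and 29 rose at 6 hr, 48 hr and 6 days and none fell, with medians of log2 1.36, 1.95 and 2.31. STC2 lay above that median at 6 hr and 48 hr and below it at 6 days. Of 24 ATF4 targets, 1, 10 and 7 rose and 0, 0 and 7 fell, with medians of log2 0.06, 0.30 and -0.09. The 10 at 48 hr became 6 without library 7, and the 7 that fell at 6 days became 4 without library 10 or 12. Over all tested genes 3.39, 9.24 and 23.9% were called higher and 0.201, 2.89 and 18.3% lower. All 5 hormone and receptor genes at 6 days were above the highest ATF4 target, ATF3, a stress transcription factor (log2 0.82, limma adjusted p = 0.00125). This too follows from how the 5 were selected.

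**Figure D5:**
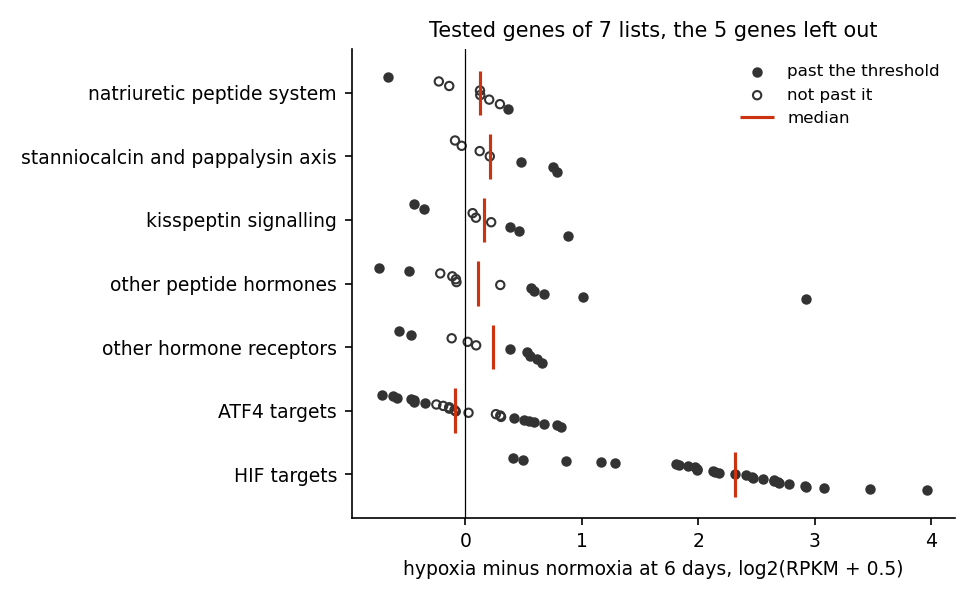
Difference between hypoxia and normoxia at 6 days, log2(RPKM + 0.5), for the tested genes of 7 lists; filled points passed limma's test at an adjusted p of 0.05, and red bars are list medians. The partner lists of the natriuretic, stanniocalcin and kisspeptin systems have medians of 0.13, 0.21 and 0.16, against 2.31 for HIF targets.

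The genes nearest to each of the 5 over the 6 group means were found by the root mean square (RMS) difference of centred log2 values. Nearest to STC1 were NDRG1, a stress-responsive gene (RMS 0.290), LOX, which cross-links collagen (0.347), and NPR3 (0.350). Nearest to NPPB were CA9, a carbonic anhydrase (0.403), LOX (0.462) and S100A10, an annexin partner (0.584), with STC1 at rank 8 (0.661). Nearest to NPR3 were NDRG1 (0.132), CYP26A1, a retinoic acid hydroxylase (0.147), and TNFRSF10C, a decoy receptor of the TRAIL ligand (0.195). Of these neighbours NDRG1, LOX and CA9 are on the list of HIF targets, and S100A10, CYP26A1 and TNFRSF10C are not.

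STC2 and KISS1R had other neighbours in pattern. Nearest to STC2 were C20orf46 (0.250), PDK1, a kinase that holds back pyruvate oxidation (0.276), and PLEKHA2, a lipid-binding adaptor (0.279). Nearest to KISS1R were the glycolytic enzymes PFKP (0.191) and PGK1 (0.195) and the transcription factor NPAS1 (0.214). PDK1 and PGK1 are on the list of HIF targets, and C20orf46, PLEKHA2, PFKP and NPAS1 are not. Among the 5 genes, STC1 and NPR3 were the nearest pair (0.350), and the other 9 pairs lay between 0.661 and 1.10. STC1 and STC2 were at 0.967, NPPB and NPR3 at 0.904 and NPPB and KISS1R at 1.01. The added 0.5 RPKM brings genes near 0 closer on this measure. Without it the mean in hypoxia at 6 days was 166 times that at 6 hr for STC1 and 18.6 times for NPR3. Other pseudocounts were not run for these distances. Measured over the 12 libraries in place of the group means, the nearest 3 were the same genes for STC1, STC2, NPPB and NPR3, and 2 of 3 for KISS1R.

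Genes beside the 5 on the chromosome were compared by name, in the order of RefSeq on GRCh38.p14. NPPA, next to NPPB, was listed at 0 in all 4 libraries at 6 days, and KIAA2013, on the other side, was at 9.21 against 4.90 RPKM at 6 days (log2 0.84, limma adjusted p = 0.000420). NKX2-6 and ADAM28, beside STC1, were at or under 0.0277 RPKM on average in each group. BOD1, beside STC2, differed by log2 0.15 at 6 days (limma adjusted p = 0.234), and NKX2-5, on its other side, was at 0.303 against 0.328 RPKM. SUB1 and TARS, beside NPR3, gave limma adjusted p = 0.395 and 0.673 at 6 days. C19orf22, beside KISS1R, was higher by log2 0.35 at 48 hr and 0.33 at 6 days (limma adjusted p = 0.0368 and 0.0196), calls lost at 48 hr without filter (0.0637) or without library 5, 6, 7, 8, 11 or 12 (0.0567 to 0.247) and at 6 days without library 9, 11 or 12 (0.0689 to 0.140), and ARID3A on its other side did not pass (0.228 at 6 days). These neighbours were looked at after values were seen.

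The libraries as a whole set the limits of these values. Inferred depth ran from 25.2 to 51.8 M reads, and the 2 libraries of a group differed by a median of 0.09 to 0.13 on the log2 scale, but by 0.20 in normoxia at 6 hr, where the depths were 51.8 and 26.1 M. All genes called, 428 at 6 hr, became 836 without library 1 and 181 without library 3; the 1448 at 48 hr became 811, 733, 619 and 804 without libraries 5, 6, 7 and 8. Of all calls, 94.4% at 6 hr, 76.2% at 48 hr and 56.6% at 6 days were higher in hypoxia, against 76.1, 57.9 and 45.3% after quantile normalization and 76.2, 56.6 and 49.2% after trimmed-mean centring. Markers of the cell line were mixed: EPCAM (40.4 RPKM at 6 days in hypoxia) and KRT18 (24.8) were high, but only 2 or 3 of 10 epithelial and ovarian markers reached 1 RPKM in any group. Summed over the list they gave 61.5 to 64.3 RPKM in normoxia and 66.2 to 67.2 in hypoxia at 6 days. Heart muscle markers, listed because NPPB is a heart hormone, summed to 3.66 to 3.85 RPKM in normoxia and 3.99 to 6.17 in hypoxia at 6 days, mostly TNNI3, the only 1 of 9 at 1 RPKM. Both hypoxia libraries were above both normoxia libraries at 6 days for 4 of the 9: RYR2 (0.396 and 0.389 against 0.0983 and 0.0827 RPKM), ACTN2 (0.732 and 0.518 against 0.281 and 0.190), MYL7 (0.252 and 0.20 against 0 and 0) and TNNT2 (0.0805 and 0.0708 against 0 and 0.0588). MYH7 was at 0 in hypoxia and the other 4 overlapped. RYR2, ACTN2, MYL7 and TNNT2 were all below the minimum for testing. How many of all genes had libraries apart at 6 days was not counted, so this count has no background. Fibroblast markers summed to 34.1 to 35.6 against 44.5 to 48.1 RPKM, with LUM (log2 0.86, limma adjusted p = 0.000834) and DCN (log2 0.32, 0.0201, lost without library 9, 11 or 12, 0.0758 to 0.122) called higher at 6 days. Of the 9 fibroblast markers 4 were tested, and 2 of these were not called at 6 days. COL3A1 was at 2.65 RPKM in hypoxia against 2.55 in normoxia (limma adjusted p = 0.724). THY1 was lower in hypoxia, at 4.90 against 5.60 RPKM (limma adjusted p = 0.270). Endothelial and immune markers had none at 1 RPKM, with sums of at most 0.397 and 2.14 RPKM. The part of such cells in the 5 genes was not tested.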

How the data were processed

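The authors deposited RPKM, 1 column per library, for gene symbols and for precursor miRNAs. Partek 6.6 and hg19 are listed in the submitters' processing notes with no role, and which aligner, transcript models, strand setting and read total went into RPKM is not given in the sources used here. RNA was read as 75-base forward reads on a 5500xl, per the labels.

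RPKM was used without further scaling. Genes at 1 RPKM or more in 2 or more of the 12 libraries entered a limma fit (version 3.58.1, R 4.3.3) of log2(RPKM + 0.5) on 6 group means, with an intensity trend in the prior variance, 6 residual and 5.08 prior degrees of freedom, two-sided, with Benjamini-Hochberg adjustment over all 11933 genes and a threshold of 0.05. The procedure was tested on simulated data. The 5 genes, the gene lists and the comparisons were chosen with earlier results of these data known. Their selection used hypoxia against normoxia, so they were tested in normoxia only, whose values were 1 side of that comparison.

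From each list up to 4 genes past the threshold were named at each time, by size of change, if the higher group's mean was 1 RPKM or more, and for each of the 5 genes the 3 genes nearest in pattern. Chromosome neighbours and the ratio of mean RPKM without a pseudocount were chosen after values were seen.

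Reads per library were inferred from the steps of low precursor RPKM and the RefSeq hairpin lengths; 96.5 to 99.3% of the values used came within 0.05 of a whole number of reads. Reads of STC1, NPPB and KISS1R follow from their own steps. Intervals and floors cover counting error only, since PCR copies are not independent molecules. Alternatives were other pseudocounts (0.1 and 1), quantile normalization, centring on a 20% trimmed mean, no filter, no trend, and leaving out each library. Promoters are RefSeq windows on GRCh38.p14, and no coordinates on hg19 are given. Plots used Python 3.11.15 and matplotlib 3.10.9.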

Additional observations from a re-analysis of the deposited data

Results flagged for a closer look

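For 3 of the list genes that passed the test at some time and are named, both hypoxia libraries lay above both normoxia libraries at 1 time and below them at another. CALCB, a calcitonin gene-related peptide, differed by log2 0.79 at 48 hr and by log2 -0.22 at 6 days. DDIT3, an ATF4 target, differed by log2 -0.060 at 6 hr, 0.82 at 48 hr and -0.094 at 6 days. PCSK6, a convertase of the natriuretic list, differed by log2 0.27 at 6 hr, -0.15 at 48 hr and -0.67 at 6 days. CALCB and DDIT3 passed the test at 48 hr only, and PCSK6 at 6 days only. Elsewhere limma adjusted p was 0.235 for CALCB at 6 days, and 0.835 and 0.509 for DDIT3 at 6 hr and 6 days. For PCSK6 it was 0.131 at 6 hr and 0.303 at 48 hr. The difference between times was not tested for these genes, and how many of all tested genes change sides in this way was not counted. List genes below the minimum for testing were not counted here, and some of them, such as NPPC, also changed sides between times. None of STC1, STC2, NPPB, NPR3 and KISS1R showed opposite directions with libraries apart.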

How the results depend on the processing

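The hypoxia differences of the 5 genes at 6 days kept their direction under every alternative run. For STC1, NPPB, NPR3 and KISS1R the size followed the pseudocount. With 0.1 added to RPKM the log2 differences at 6 days were 5.59 for STC1, 6.96 for NPPB, 3.30 for NPR3 and 2.59 for KISS1R, and with 1 added they were 2.73, 3.74, 1.91 and 1.53. As log2 ratios of mean RPKM with nothing added, a setting chosen after seeing the data, they were 8.07 for STC1, 3.64 for NPR3 and 2.84 for KISS1R. For STC1 quantile normalization gave 3.43 and trimmed-mean centring 3.54, beyond the small spread of its libraries. At 6 hr the STC1 difference turned to -0.033 with quantile normalization and -0.037 with trimmed-mean centring, and ran from -0.013 to 0.054 when 1 library was left out.

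In normoxia the call of NPR3 at 6 days against 6 hr was lost with a pseudocount of 1 (log2 0.23), quantile normalization (0.034) and trimmed-mean centring (0.36), and without 1 library its difference ran from 0.26 to 0.52. Differences that were never called changed sign. From 6 hr to 48 hr, trimmed-mean centring gave log2 -0.084 for STC1, -0.065 for NPPB, -0.067 for NPR3 and -0.065 for KISS1R. Without 1 library these ran from -0.033 to 0.034 for STC1, -0.055 to 0.0049 for STC2, -0.076 to 0.11 for NPPB, -0.089 to 0.12 for NPR3 and -0.13 to 0.17 for KISS1R. From 6 hr to 6 days KISS1R gave -0.22 after quantile normalization, and without 1 library ran from -0.012 to 0.28, and STC1 from -0.049 to 0.018. From 48 hr to 6 days STC1 gave 0.040 after trimmed-mean centring and -0.045 to 0.013 without 1 library, and KISS1R gave -0.25 after quantile normalization. STC2 kept its calls at 6 days under every alternative run.

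Over all genes, the number called moved from 428 to between 181 and 836 at 6 hr when 1 library was left out, from 1448 to between 619 and 2066 at 48 hr, and from 11 to between 6 and 1310 between 48 hr and 6 hr in normoxia, where trimmed-mean centring gave 18. The cause was not tested. No paired analysis was possible because the groups compared share no library number; a number recurs only in the precursor table of the same library. Depth limits STC1 and NPPB in normoxia, where 0 to 6 reads per library were seen, and 2 libraries a group limit every test.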
